A study of Caenorhabditis elegans with 8 samples.

Results

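The cytosolic ribosomal protein genes are those whose symbols begin with *rpl-* (large subunit) or *rps-* (small subunit) and a number. On the Affymetrix *C. elegans* gene array, 75 of 29317 probe sets carried exactly 1 such symbol in the platform annotation, 45 of the large and 30 of the small subunit, each for a different gene. No probe set with several symbols fitted the rule, and all 75 symbols were found with the same Entrez ID in the RefSeq gene table. Total RNA of whole day 1 adult hermaphrodites, raised at 22 °C and collected 200 to 300 per sample, was measured in 4 arrays of *dyf-1(mn335)* (strain PP896), a loss-of-function mutant of a gene needed for the distal segments of sensory cilia, and in 4 arrays of wild-type N2 Bristol. The mutation is present in all tissues, and neither strain carried a transgene or received a treatment in the sources used here. The values are log2 expression values after RMA, 1 per probe set and array, and every change below is a difference of log2 values, *dyf-1(mn335)* minus wild-type.

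The cytosolic ribosome makes nearly all proteins of the cell. Its small subunit reads the mRNA, and its large subunit joins the amino acids and lets the new chain out through an exit tunnel. Each ribosome holds 1 copy of most of these proteins, so that cells make them in step with one another and with ribosomal RNA, and their transcripts are among the most abundant of an animal, above all in growing tissues and the germline. Subunits are assembled mostly in the nucleolus, and the supply of their proteins follows growth signals such as those of the TOR kinase.

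Among the wild-type arrays, replicate 4 differed from the others. Over all probe sets it correlated with wild-type replicates 1 to 3 at 0.958 to 0.974 and with the mutant arrays at 0.967 to 0.978, and 59.8% of all probe sets lay nearer on it to the mean of mutant replicates 1 to 3 than to that of wild-type replicates 1 to 3. The main results are therefore given with and without this array. The *dyf-1* transcript was higher in the mutant by 1.18 (standard error, SE, 0.19; adjusted p = 0.0031 from limma) and by 1.2 without wild-type replicate 4; the sources used here do not give the lesion, so this does not check the labels.

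Most ribosomal protein transcripts had lower values in *dyf-1(mn335)*, but few of the differences reached an adjusted p under 0.01 from limma over all 8 arrays. The log2 fold change was below 0 for 66 of the 75 members, 38 of 45 in the large and 28 of 30 in the small subunit, where 53.4% of all probe sets were below 0. Its median was -0.36 for the members (1.29-fold lower) and -0.04 for all probe sets, and the members' quartiles were -0.64 and -0.15. Limma called only *rpl-19* of the large subunit and *rps-20* and *rps-13* of the small subunit lower (adjusted p under 0.01) and no member higher. These 3 of 75 (4.0%) compare with 3.46% of all probe sets called lower and 6.56% called higher, so that the count of calls was near the background. At an adjusted p under 0.05 from limma, 18 members were lower (11.66% of all probe sets) and *rpl-23A.1* was higher (13.13% of all probe sets). At an unadjusted p under 0.05, 37 members were lower (19.96% of all probe sets) and 1 was higher (19.01% of all probe sets). In whole animals, fewer cells of a type and less RNA per cell cannot be told apart.

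Without wild-type replicate 4 the picture was larger in size and the same in direction. All 75 members kept the sign of their fold change, 64 had a larger absolute one, and the median was -0.45. Since wild-type replicate 4 lay toward the mutant arrays, larger differences without it arise in part by construction. The quartiles of all probe sets also widened, from -0.35 and 0.35 to -0.40 and 0.43. By limma 27 members were lower at an adjusted p under 0.01, or 36% of them against 12.92% of all probe sets, and 1 was higher, against 13.28% of all probe sets. The 3 calls made over all 8 arrays were among these 28. For 23 members every mutant array was below every wild-type array (11.07% of all probe sets), and for 1 every mutant array was above (12.64%). Without wild-type replicate 4 these were 46 (22.81%) and 7 (22.96%). Leaving out any other array worked the other way: the 3 called transcripts kept their direction and size, with adjusted p values from limma of 0.0106 to 0.0312, and no member was called, where 1.11% to 2.46% of all probe sets were called lower in these 7 fits.

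**Figure D1:**
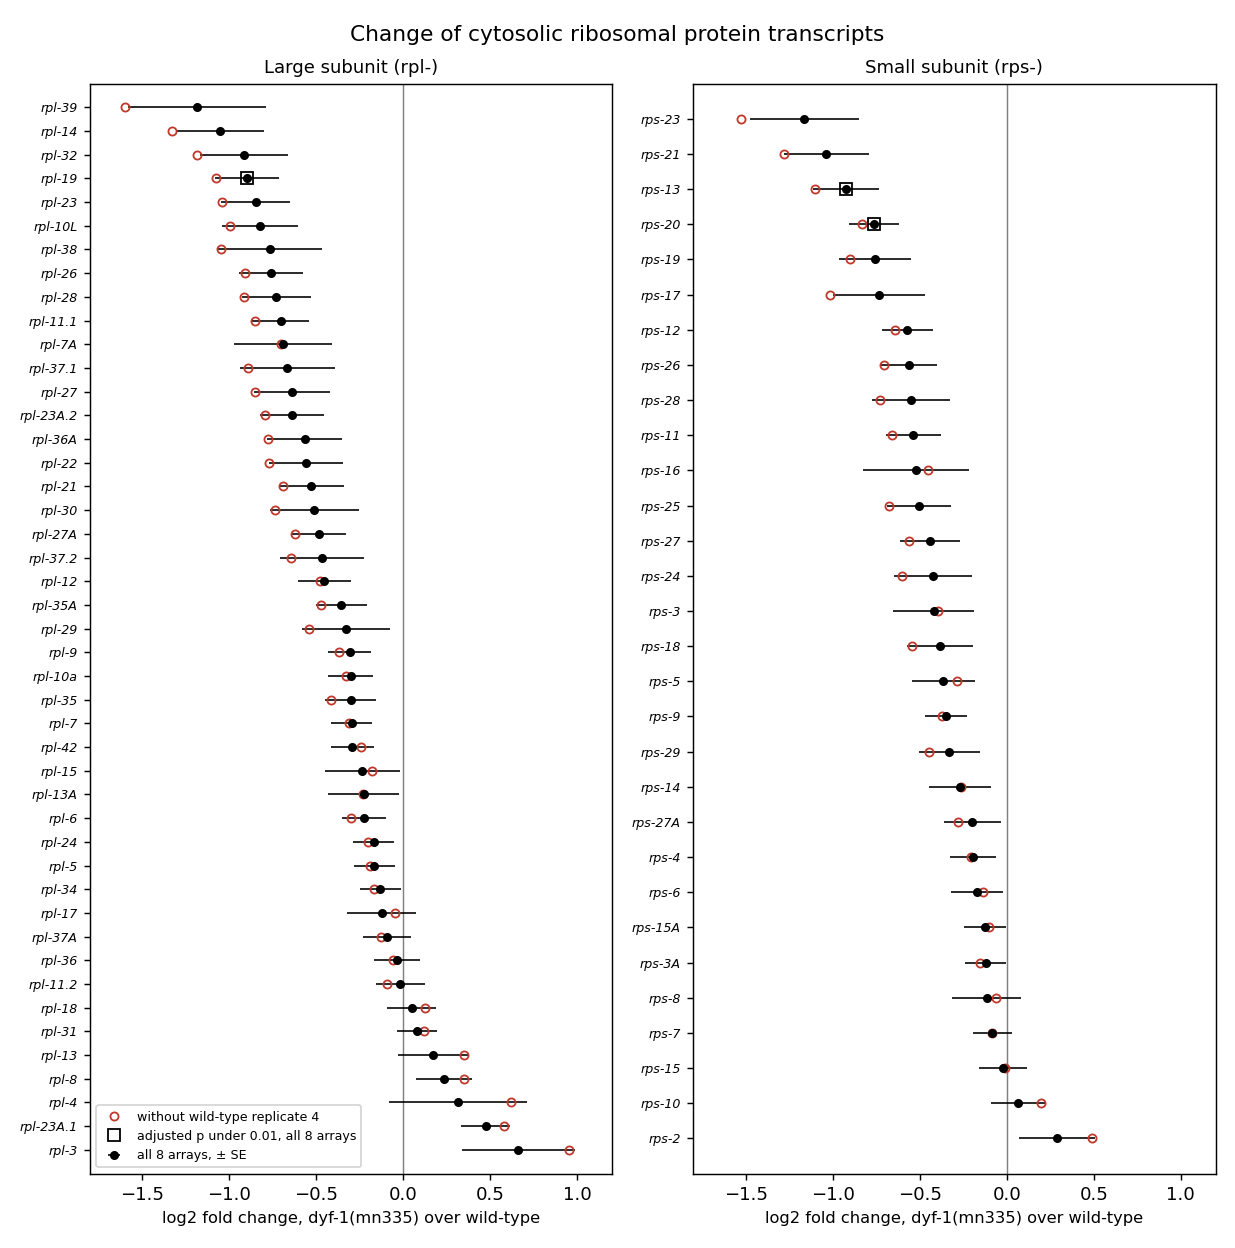
Log2 fold change of each member, *dyf-1(mn335)* over wild-type, by subunit and sorted by value; black points are the fits on all 8 arrays with their standard error, red circles those without wild-type replicate 4, and squares mark an adjusted p under 0.01 over all 8 arrays. In both panels 66 of the 75 black points lie left of 0, and 64 red circles lie farther from 0 than their black point.

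The large and the small subunit did not separate. Large subunit members had a median log2 fold change of -0.33 and small subunit members one of -0.40, a difference of 0.07, and without wild-type replicate 4 the order turned, with -0.48 and -0.45. Called lower without that array were 17 of 45 large subunit members (37.8%) and 10 of 30 small subunit members (33.3%). Compared with the mean of wild-type replicates 1 to 3, the large subunit had a median of -0.38, -0.46, -0.42 and -0.48 on mutant replicates 1 to 4, and the small subunit one of -0.44, -0.50, -0.42 and -0.44. The medians of the 4 mutant arrays thus lay close to one another in both subunits. Single members differed more, with mutant replicate 4 below the other mutant arrays for 32 of 75 members and above them for 35. Wild-type replicate 4 was at -0.30 in the large and at -0.28 in the small subunit, between the other wild-type arrays (-0.03 to 0.02 in both) and the mutant.

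**Figure D2:**
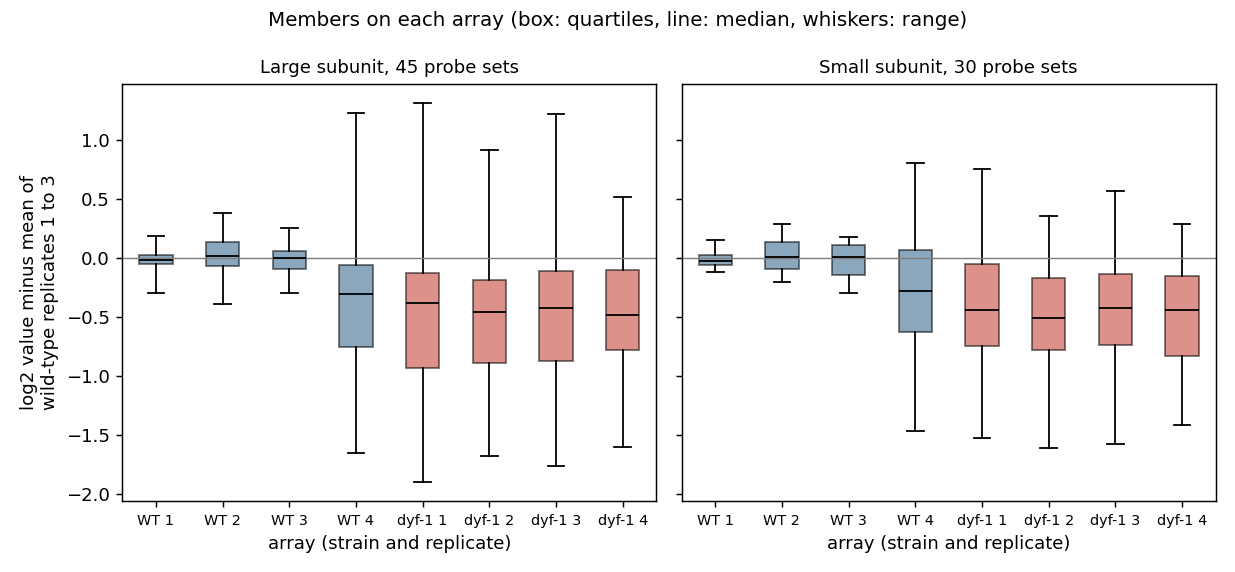
Log2 value of each member minus its mean in wild-type replicates 1 to 3, for each array (box: quartiles, line: median, whiskers: range over the members). The 3 left boxes in each panel centre on 0 by construction; wild-type replicate 4 has medians of -0.30 and -0.28, and the mutant arrays have medians of -0.38 to -0.50.

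*rps-13*, whose protein sits in the body of the small subunit near the contacts with the large one, was at 9.67, 9.44, 9.62 and 9.43 in mutant replicates 1 to 4 and at 10.57, 10.69, 10.67 and 9.92 in wild-type replicates 1 to 4. All mutant arrays lay below all wild-type arrays, and wild-type replicate 4 was the nearest to them. The transcript fell by 0.92 (SE 0.19, 1.89-fold; adjusted p = 0.0085 from limma), and by 1.10 without wild-type replicate 4 (adjusted p = 0.00028 from limma). *rps-20*, which encodes a protein of the small subunit head, was at 9.97, 9.68, 9.71 and 9.66 in the mutant and at 10.53, 10.50, 10.74 and 10.31 in wild-type. Here wild-type replicate 4 stayed close to its group, and the fall of 0.76 (SE 0.14, 1.70-fold; adjusted p = 0.0056 from limma) had the lowest adjusted p of all members; it was 0.83 without that array (adjusted p = 0.0016 from limma). *rpl-19*, whose protein reaches from the large to the small subunit, was at 8.30, 8.32, 8.40 and 8.34 in the mutant and at 9.33, 9.499, 9.42 and 8.69 in wild-type. It fell by 0.90 (SE 0.18, 1.86-fold; adjusted p = 0.0086 from limma) and by 1.08 without wild-type replicate 4 (adjusted p = 0.00021 from limma), and the SD of the 4 mutant values was 0.05.

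The differences of greatest size were in transcripts that did not pass over all 8 arrays, and in these wild-type replicate 4 was at or near the mutant level. *rpl-39* encodes one of the smallest ribosomal proteins, which lines the exit tunnel. It was at 10.11, 10.33, 10.25 and 10.96 in mutant replicates 1 to 4 and at 12.15, 11.63, 12.26 and 10.36 in wild-type replicates 1 to 4. Wild-type replicate 4 thus lay inside the mutant range, and the log2 fold change was -1.19 (SE 0.39, adjusted p = 0.055 from limma) with all arrays and -1.60 (3.03-fold lower, adjusted p = 0.00099) without this one. *rps-23*, whose protein lies at the decoding centre, showed the same arrangement in the small subunit. It was at 9.74, 9.65, 9.69 and 9.84 in the mutant and at 11.23, 11.28, 11.26 and 9.80 in wild-type, a difference of -1.16 (adjusted p = 0.027 from limma), and of -1.53 (2.88-fold lower, adjusted p = 6.8e-05) without wild-type replicate 4. The SD of this transcript was 0.03 over wild-type replicates 1 to 3 and 0.73 over all 4 wild-type arrays.

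*rps-21*, for a protein of the small subunit body, was at 8.29, 8.41, 8.599 and 8.83 in the mutant and at 9.77, 9.73, 9.94 and 8.85 in wild-type (-1.04, adjusted p = 0.015 from limma). *rpl-14* was at 9.29, 9.09, 9.26 and 9.17 in the mutant and at 10.39, 10.61, 10.60 and 9.42 in wild-type (-1.05, adjusted p = 0.017 from limma). In both the strains did not overlap, but wild-type replicate 4 was much closer to the mutant arrays than to the other wild-type arrays. *rpl-32* was at 9.53, 9.54, 9.46 and 9.83 in the mutant and at 10.76, 10.73, 10.83 and 9.69 in wild-type (-0.91, adjusted p = 0.029 from limma). *rpl-23*, for a protein at the face toward the small subunit, had a log2 fold change of -0.85, and *rps-19*, for a protein of the small subunit head, one of -0.76 (adjusted p = 0.015 and 0.028 from limma). All 5 were lower without wild-type replicate 4, at log2 fold changes of -1.28, -1.33, -1.19, -1.04 and -0.90 (adjusted p = 0.00043, 0.00014, 0.00029, 0.00041 and 0.0049 from limma).

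A few members went the other way. *rpl-3* and *rpl-4*, whose proteins are among the largest of the ribosome and reach toward its catalytic centre, had log2 fold changes of 0.66 and 0.31 (SE 0.33 and 0.40; adjusted p = 0.17 and 0.59 from limma). *rpl-3* was at 11.64, 11.23, 11.54 and 10.68 in mutant replicates 1 to 4 and at 10.04, 10.62, 10.29 and 11.49 in wild-type replicates 1 to 4. *rpl-4* was at 11.15, 10.57, 10.88 and 9.55 in the mutant and at 9.90, 10.14, 9.71 and 11.15 in wild-type. In both transcripts the replicate 4 arrays broke the pattern: wild-type replicate 4 was as high as mutant replicates 1 to 3, and mutant replicate 4 was the lowest array of its strain. *rps-2*, whose protein lies where the mRNA enters, was at 9.55, 9.15, 9.36 and 9.08 in the mutant and at 8.80, 8.64, 8.94 and 9.603 in wild-type (0.29, adjusted p = 0.36 from limma), and *rpl-8*, at the catalytic centre, had 0.23 (adjusted p = 0.31). *rpl-13* was at 0.17 (adjusted p = 0.56 from limma), and *rps-15* and *rps-10*, for proteins of the small subunit head, lay close to 0 (-0.02 and 0.07, adjusted p = 0.93 and 0.77). Without wild-type replicate 4, *rpl-3*, *rpl-4*, *rps-2* and *rpl-8* were at 0.95, 0.62, 0.49 and 0.35 and did not pass either (adjusted p = 0.015, 0.18, 0.033 and 0.064 from limma). With both replicate 4 arrays left out, *rpl-3* and *rpl-4* were called higher, at 1.15 and 0.95 (adjusted p = 0.0017 and 0.0043 from limma), and *rps-2*, at 0.56, was not (adjusted p = 0.017).

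**Figure D3:**
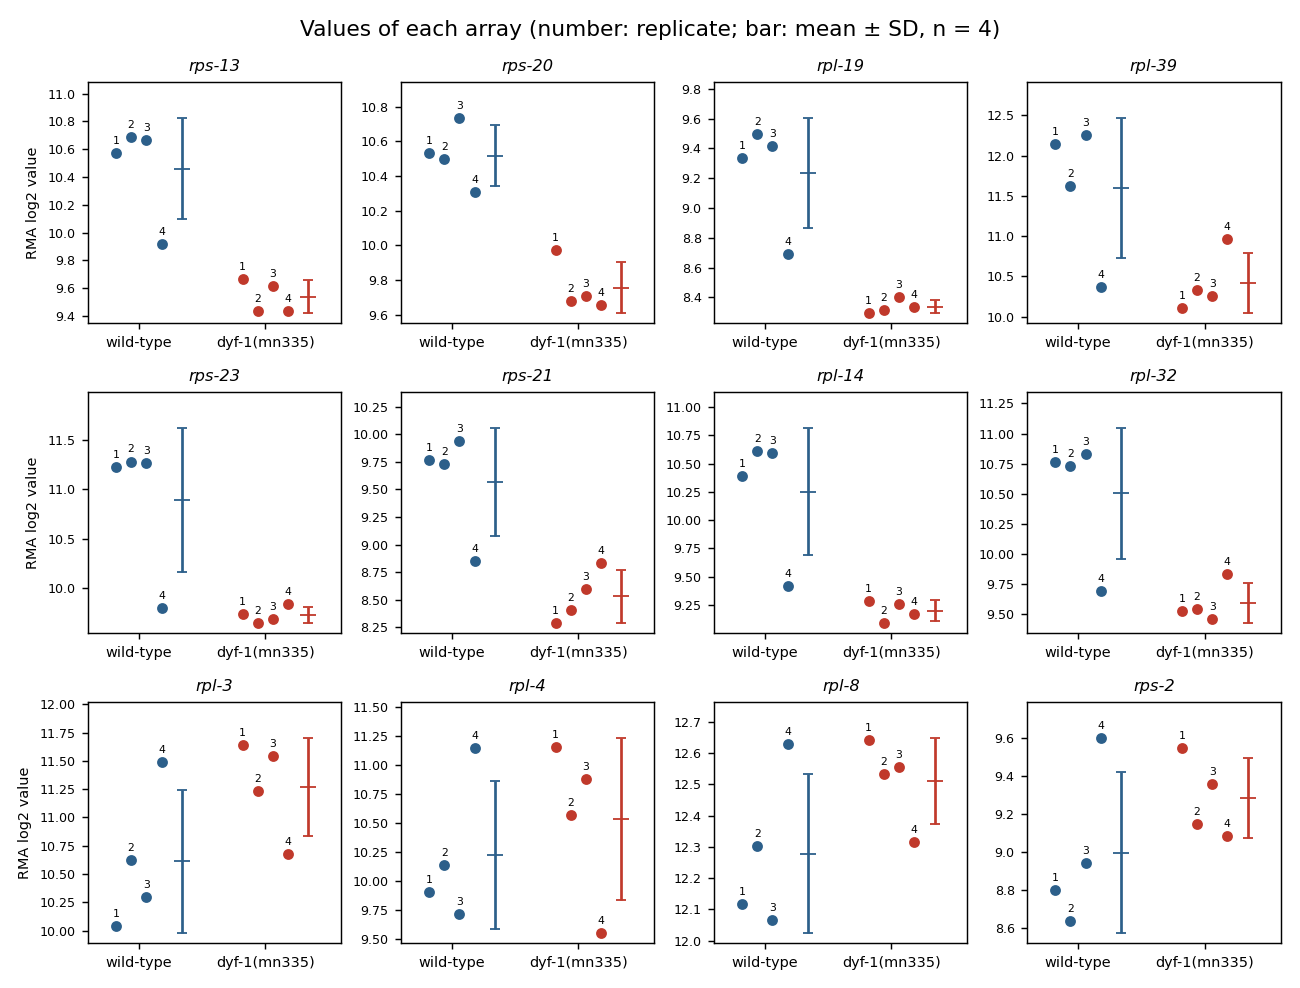
RMA log2 value on each array for 12 members (points with replicate numbers; bars: mean ± SD, n = 4), each panel with its own axis, which does not start at 0. In the upper 8 panels the mutant lies below wild-type replicates 1 to 3, and wild-type replicate 4 is the lowest wild-type array; in the lower 4 panels wild-type replicate 4 is the highest wild-type array and mutant replicate 4 the lowest mutant array.

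Wild-type replicate 4 was set beside mutant replicates 1 to 3 and wild-type replicates 1 to 3 member by member, as a description. It was nearer to the former than to the latter for 58 of 75 members (77.3%, with 59.8% of all probe sets), 39 of 45 (86.7%) in the large and 19 of 30 (63.3%) in the small subunit, so that the small subunit was near the share of all probe sets. Among the members nearer to wild-type was *rps-20*, at -0.80 on mutant replicates 1 to 3 and -0.28 on wild-type replicate 4. Others had opposite signs, such as *rps-5* and *rps-16*, of the small subunit head, at -0.14 and -0.13 on mutant replicates 1 to 3 and at 0.32 and 0.29 on wild-type replicate 4. Wild-type replicate 4 was below all 3 other wild-type arrays for 48 members (64%, with 34.5% of all probe sets) and above all 3 for 14 (18.7%, with 36.9% of all probe sets). Set against wild-type replicate 4 alone, the mean of the mutant arrays was lower for 54 of 75 members, with a median of -0.14 for the members, -0.10 for the large and -0.17 for the small subunit, and of -0.04 for all probe sets. With 1 wild-type array there is no test of these values. Mutant replicate 4 was below the other mutant arrays for 32 members (42.7%, with 31.7% of all probe sets) and above them for 35 (46.7%, with 40.7% of all probe sets). For 32 members mutant replicate 4 was the highest mutant array and wild-type replicate 4 the lowest wild-type array, and for 13 the reverse held. Of all 29317 probe sets, 6544 had the first arrangement and 5835 the reverse.

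**Figure D4:**
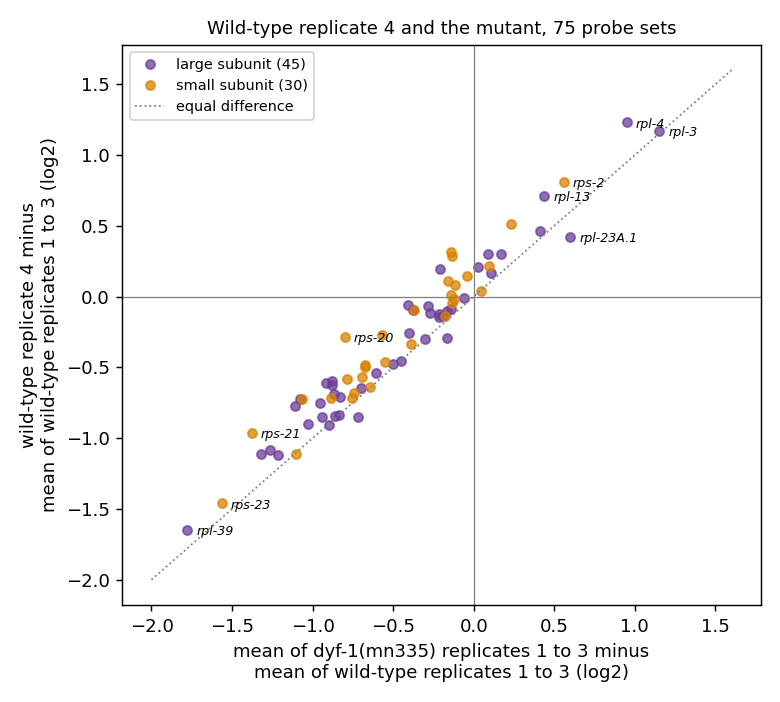
For each of the 75 members, the mean of mutant replicates 1 to 3 (horizontal) and wild-type replicate 4 (vertical), both as the difference from the mean of wild-type replicates 1 to 3 on the log2 scale, which the axes share; the dotted line marks equal differences. Both axes subtract the same mean, so that some agreement arises by construction; *rpl-39* (-1.78 and -1.65) and *rpl-3* (1.15 and 1.17) lie near the line, and *rps-20* (-0.80 and -0.28) and *rpl-7A* (-0.41 and -0.06) lie off it.

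The replicates were otherwise tight. The SD of a member had a median of 0.11 over wild-type replicates 1 to 3 and of 0.06 over mutant replicates 1 to 3, where all probe sets had 0.20 and 0.15. With the replicate 4 arrays the medians were 0.25 and 0.17 for the members and 0.30 and 0.23 for all probe sets.

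By place in the ribosome, the members at the peptidyl transferase centre of the large subunit differed from the others in their median. Of these 4, *rpl-3*, *rpl-4* and *rpl-8* are described above, while *rpl-10L* was lower, at -0.82 (adjusted p = 0.024 from limma) and at -0.995 without wild-type replicate 4 (adjusted p = 0.0027). The median of the 4 was 0.27 (0.48 without wild-type replicate 4), and on wild-type replicate 4 it was 0.82 above wild-type replicates 1 to 3. Set against the same 3 arrays, it was 0.68 on mutant replicates 1 to 3 but -0.11 on mutant replicate 4. The 8 members at the exit tunnel and its rim had a median of -0.47, with *rpl-39* (-1.19) and *rpl-19* (-0.90) at the low and *rpl-23A.1* (0.47) and *rpl-31* (0.08) at the high end. Of the 3 that bind the 5S RNA, *rpl-5* was at -0.17 and the *rpl-11* genes at -0.71 and -0.02. The head of the small subunit (14 members) had a median of -0.46 with *rps-20* called, and its body and platform (16 members) one of -0.31 with *rps-13* called. In the fit without wild-type replicate 4, 5 members were called lower in each of these 2 groups. At the exit tunnel 4 were called lower and 1 higher (*rpl-23A.1*). The peptidyl transferase centre had 1 called lower (*rpl-10L*), and so did the members that bind the 5S RNA (*rpl-11.1*). Of all probe sets, 12.92% were called lower and 13.28% higher in this fit. The groups were not compared by a test.

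Proteins of the ribosome fall into families shared with bacteria and families found in eukaryotes, some of them also in archaea. The 33 members of shared families had a median of -0.33 and the 41 of the others one of -0.47, and without wild-type replicate 4 of -0.37 and -0.64. The gap was wider on wild-type replicate 4 itself, where the median difference from wild-type replicates 1 to 3 was -0.10 in the shared and -0.57 in the other families. On mutant replicate 4 the order was the reverse, at -0.52 and -0.41. *rpl-42*, to which no family was assigned here, had the only dim probe set, at 4.04 ± 0.11 (SD, n = 4) in the mutant and 4.34 ± 0.11 (SD, n = 4) in wild-type. The difference was -0.29 (adjusted p = 0.11 from limma), and below a log2 value of 5 the size of a change is uncertain. Its symbol alone makes *rpl-42* a member, since its place in the cytosolic ribosome could not be checked here. It is counted among the members below 0.

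The members with a second gene of the same family gave a contrast within the group. *rpl-11.1*, on chromosome V, was at 11.69, 11.69, 11.70 and 11.79 in the mutant and at 12.66, 12.58, 12.48 and 11.98 in wild-type, without overlap. Its log2 fold change was -0.71 (SE 0.17, adjusted p = 0.015 from limma), and -0.86 without wild-type replicate 4 (adjusted p = 0.00062). *rpl-11.2*, on the X chromosome, was at 8.87, 8.76, 8.70 and 9.08 in the mutant and at 8.90, 8.96, 8.97 and 8.65 in wild-type, with overlapping strains and a difference of -0.02 (SE 0.14, adjusted p = 0.93 from limma). The protein of both genes binds the 5S RNA, and in mammals its homologue also binds the p53 regulator Mdm2.

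*rpl-23A.2* and *rpl-23A.1* encode the protein at the tunnel exit where factors dock that handle the new chain. *rpl-23A.2*, on chromosome I, was at 10.04, 10.04, 10.13 and 10.42 in the mutant and at 11.03, 10.84, 10.99 and 10.32 in wild-type (-0.64, SE 0.18, adjusted p = 0.033 from limma). *rpl-23A.1*, on the X chromosome, was at 12.01, 12.04, 11.92 and 11.91 in the mutant and at 11.38, 11.46, 11.34 and 11.81 in wild-type (0.47, SE 0.14, adjusted p = 0.038 from limma). It was the only member whose mutant arrays all lay above the wild-type arrays. Without wild-type replicate 4 limma called both, *rpl-23A.2* by -0.79 (adjusted p = 0.0023) and *rpl-23A.1* by 0.58 (adjusted p = 0.0040), and the latter was the only member called higher.

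Within each array, the log2 value of *rpl-11.1* minus that of *rpl-11.2* was 0.69 lower in the mutant (difference -0.69, SE 0.11), with no overlap of the strains (exact permutation test, two-sided, p = 0.0286, which no pair of groups of 4 can go below; 0.0429 after Benjamini-Hochberg adjustment over 3 pairs), and the difference was -0.76 without wild-type replicate 4. For *rpl-23A.2* minus *rpl-23A.1* the difference was -1.11 (SE 0.29; exact permutation test, two-sided, p = 0.0286; adjusted p = 0.0429 over the 3 pairs), although mutant replicate 4 and wild-type replicate 4, at -1.491 and -1.488, were almost equal; without wild-type replicate 4 it was -1.37. *rpl-37.1* and *rpl-37.2*, on chromosomes II and III, did not differ beyond the spread in this way (-0.20, SE 0.21; exact permutation test, two-sided, p = 0.429). They had log2 fold changes of -0.67 and -0.47 (adjusted p = 0.10 and 0.18 from limma), and of -0.89 and -0.65 without wild-type replicate 4 (adjusted p = 0.013 and 0.039). *rpl-7* (-0.30) and *rpl-7A* (-0.69), which share a number but not a family, did not pass (adjusted p = 0.089 and 0.10 from limma). Probes of near-identical genes may hybridise with both transcripts, and the probe sequences were not analysed here.

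**Figure D5:**
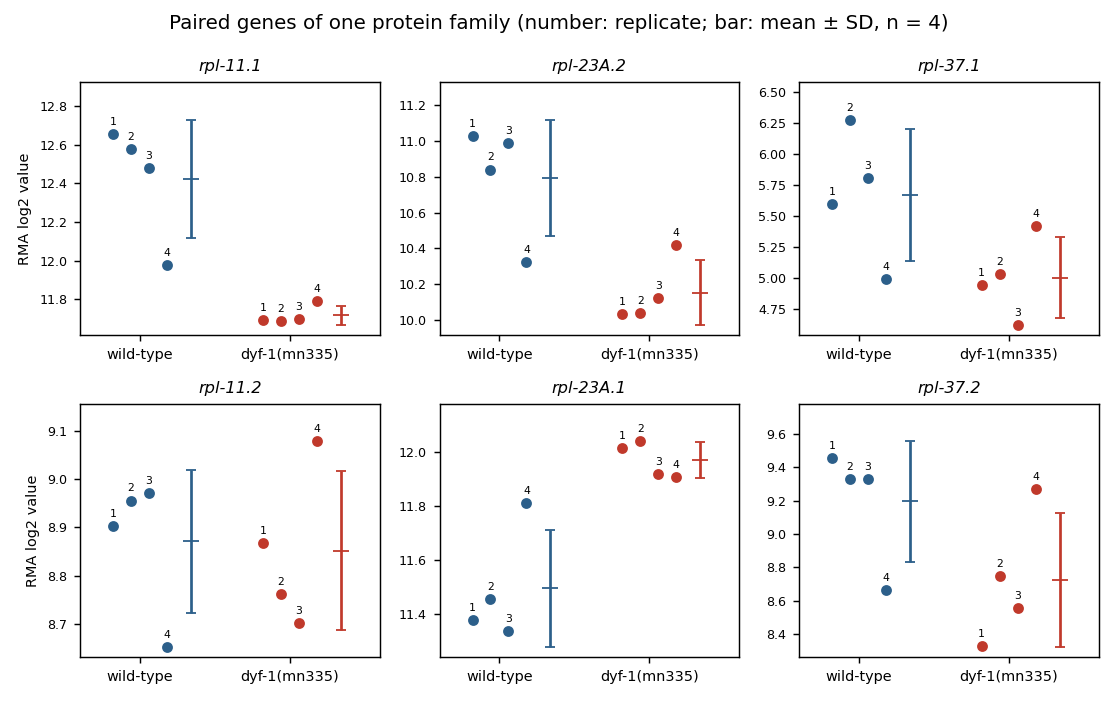
RMA log2 value on each array for the paired genes of 3 families (points with replicate numbers; bars: mean ± SD, n = 4), each panel with its own axis, which does not start at 0. All mutant points lie below the wild-type points for *rpl-11.1* and above them for *rpl-23A.1*; the strains overlap for the other 4 genes, in *rpl-23A.2* only through the replicate 4 arrays.

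The 2 X-linked genes of these pairs were also the only members on the X chromosome. The other 73 members had a median of -0.38, with 65 below 0. Genes on the X are for the most part silent in the worm germline, and for some such pairs the autosomal gene is known to serve it. Of all named probe sets, 1.89% on the X and 4.01% on autosomes were called lower and 9.35% and 5.92% higher, with median log2 fold changes of 0.15 and -0.08. The 13 germline markers measured had no call (3 lower and none higher by an unadjusted p below 0.05) and a median of 0.09, with a mean log2 level of 9.78 to 10.17 on the mutant and of 9.88 to 10.33 on the wild-type arrays. Wild-type replicate 4 had the highest of these means and mutant replicate 4 the lowest. The part of the germline in the paired genes was not tested.

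Ribosomal proteins of the stalk, those fused to ubiquitin and the scaffold RACK1 lie mostly outside the symbol rule, and all 9 had a log2 fold change below 0. The stalk proteins, which draw in elongation factors, are encoded by *rplp-0*, *rplp-1*, *rplp-2.1* and *rplp-2.2*. *rplp-2.1* fell by 1.15 (SE 0.23, adjusted p = 0.0083 from limma), and *rplp-2.2* was at -0.61 (adjusted p = 0.011). *rplp-1* and *rplp-0* were at -0.47 and -0.26 (adjusted p = 0.18 and 0.38). *ubq-2* and *fau-1*, which encode ribosomal proteins fused to ubiquitin or a ubiquitin-like protein, were at -0.79 and -0.43 (adjusted p = 0.049 and 0.057), and *rps-27A*, of the same kind and also 1 of the 75 members, at -0.20 (adjusted p = 0.39). *rpsa-1*, for a small subunit protein, and *rack-1*, for a signalling scaffold on its head, were at -0.13 and -0.08 (adjusted p = 0.44 and 0.65). When wild-type replicate 4 was left out, 3 of these 9 genes (*rplp-2.1*, *rplp-2.2* and *ubq-2*) were called lower and none higher.

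Genes that make or supply ribosomes had few calls over all 8 arrays. Of 42 ribosome biogenesis genes limma called none (10 lower and 1 higher by an unadjusted p below 0.05), with a median of -0.08; *lpd-6* and *dcaf-13*, of rRNA processing, had the lowest p, at -0.58 and -0.46 (adjusted p = 0.011 and 0.021). In the fit without wild-type replicate 4, 6 of the 42 were called lower and 1 higher. The next list held 11 genes of RNA polymerase I, which transcribes ribosomal RNA, including subunits shared with other RNA polymerases. None of them was called by limma either (7 lower and none higher by an unadjusted p below 0.05). Their median was -0.62, with the initiation factor gene *tif-1A* at -0.64 and the subunit gene *rpoa-12* at -1.10 (adjusted p = 0.015 and 0.038 from limma). Leaving out wild-type replicate 4 gave 7 of these 11 called lower and 1 higher, with a median of -0.78. Of 31 initiation and elongation factor genes, the cap-binding protein gene *ife-1* fell by 1.61 (adjusted p = 0.0082 from limma), none was called higher, and the median was 0.04. Without wild-type replicate 4, 6 of them were called lower and 2 higher. The TOR pathway (15 genes, median 0.25) had no call (4 lower and 3 higher by an unadjusted p below 0.05), with the kinase gene *sgk-1* at -0.65 and *nprl-2*, a negative regulator, at -0.72 (adjusted p = 0.031 and 0.043 from limma), and 3 of its genes were called lower and 4 higher without wild-type replicate 4.

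Some ribosomal protein transcripts of *C. elegans* have splice forms that nonsense-mediated decay removes. Of these, *rpl-12* was at -0.46 and *rpl-10a* at -0.30 (adjusted p = 0.057 and 0.12 from limma), beside *rpl-7A* and *rpl-3*, and without wild-type replicate 4 none of the 4 was called. The 9 decay factor genes had a median of 0.01 and no call (1 lower and 1 higher by an unadjusted p below 0.05); *smg-5* was at -0.75 and *smg-6* at 0.65 (adjusted p = 0.070 and 0.091 from limma). Mitochondrial ribosomal protein genes, which serve another ribosome, had a median of -0.56 over 70 genes, with *mrps-25* (-1.07) and *mrpl-35* (-1.55) called lower (adjusted p = 0.0069 and 0.0095 from limma). Without wild-type replicate 4, limma called 34 of them lower and 1 higher, where it called 27 of the 75 cytosolic ones lower. Compared with wild-type replicates 1 to 3, the medians of mutant replicates 1 to 3, mutant replicate 4 and wild-type replicate 4 were -0.84, -0.46 and -0.69 for the mitochondrial and -0.41, -0.47 and -0.29 for the cytosolic ribosome.

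Some marker lists of other tissues and stages differed between the strains. In those for moulting, pharynx, body wall muscle, epidermis and yolk, wild-type replicate 4 lay toward or within the mutant range. The mean log2 level of 12 moulting genes, which cycle in larvae, was 7.65 to 8.44 on the mutant arrays, 6.70 to 7.02 on wild-type replicates 1 to 3 and 7.61 on wild-type replicate 4, with 6 of 12 genes higher by limma and none lower. That of 7 pharynx genes was 8.81 to 9.51, 7.85 to 8.21 and 8.96 (1 higher, none lower), and that of 9 body wall muscle genes 10.24 to 10.59, 9.65 to 9.81 and 10.46 (none called, 5 higher by an unadjusted p below 0.05). For 5 yolk genes it was 11.60 to 11.90, 12.16 to 12.37 and 11.70, with *vit-1* lower (-1.07). Neuronal genes separated the strains on all arrays, at 9.28 to 9.35 in the mutant and 8.19 to 8.53 in wild-type (8 of 11 higher), where wild-type replicate 4 was the highest. The 9 epidermal markers included the adult collagen gene *col-19*, which was lower (-0.89, adjusted p = 0.0092 from limma), and *dpy-7*, which was higher (0.99, adjusted p = 0.0082 from limma). Their mean was 7.35 to 8.01 on the mutant arrays, 6.96 to 7.17 on wild-type replicates 1 to 3 and 7.78 on wild-type replicate 4. The intestine (2 of 10 lower and 1 higher; 9.30 to 9.504 and 9.52 to 9.64), the oocyte and eggshell (none of 13 called or past an unadjusted p of 0.05; 11.196 to 11.66 and 11.26 to 11.76) and the sperm (2 of 11 lower; 4.26 to 4.37 and 4.58 to 5.01, dim for 6) make up the remaining lists. The sperm genes were lower on every mutant array than on every wild-type array in their mean, with wild-type replicate 4 the highest. In the mean of the oocyte and eggshell genes, wild-type replicate 4 was the highest of all arrays and mutant replicate 4 the lowest. No marker can be at 0 on this scale, and the part of these tissues and stages in the ribosomal protein values was not tested.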

How the data were processed

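The authors read the array files with the R package oligo and applied RMA (background adjustment, quantile normalisation and median polish), and deposited log2 values for 29317 probe sets and 8 arrays; because of the quantile step, a change shared by all transcripts is not visible. The sources used here do not give the genome build. Probe sets were named from the platform annotation, current symbols replaced older ones in the lists through locus names, and all 8 columns were used. The strain contrast was fitted in R 4.3.3 with limma 3.58.1 (lmFit, then eBayes; two-sided, no covariate) on the whole table, with Benjamini-Hochberg adjustment across it, and a probe set was called under an adjusted p of 0.01, the threshold of the study's legends. Exact permutation tests used all 70 regroupings of the arrays. For other genes the brightest probe set of each was taken. The fit was tested on simulated data. Chromosomes are from the RefSeq table (WBcel235). Python 3.11.15 and matplotlib 3.10.9 made the figures.

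The members and all lists were chosen with earlier results of these data known. The members described are, by a rule, those called, the 5 lowest and 3 highest fold changes of each subunit, those with a paired gene or a shared number, and dim ones (mean under 5), together 24. In the other pathway lists up to 2 genes are named, called ones first and then by p, and the ribosomal proteins outside the rule are all named. *rpl-8*, *rpl-13*, *rpl-10L*, *rpl-31*, *rpl-5*, *rps-5*, *rps-16*, *rpl-12*, *rpl-10a*, *vit-1*, *col-19* and *dpy-7* were named after their values were seen. Ribosomal protein symbols that the lists lacked were added when the annotation was read. The alternatives were another threshold, a filter on dim probe sets, another variance model, array weights, centring, cyclic loess, the replicate number as a block and leaving out arrays.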

Additional observations from a re-analysis of the deposited data

Results flagged for a closer look

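The 54 groups of 4 arrays examined were both strains for the 24 members described, for *dyf-1* and for the medians of both subunits. In 10 of them 1 array lay far from the other 3, with a gap above Dixon's critical value. Chance flags about 1 in 20 independent groups. These groups share the same arrays, and many members were chosen by their fold change in these data, so that the count of 10 cannot be set against chance. Wild-type replicate 4 was the low array for *rpl-23* (7.14), *rpl-32* (9.69), *rpl-37.2* (8.66), *rps-13* (9.92) and *rps-23* (9.80). It was also the low array in the median deviation of the large (-0.30) and the small subunit (-0.28) from wild-type replicates 1 to 3; since those 3 arrays lie near 0 by construction, these flags carry no weight against chance. In the mutant, replicate 4 was high for *rpl-11.1* (11.79) and low for *rps-15* (11.09), and replicate 1 was high for *rps-20* (9.97). Without wild-type replicate 4 the log2 fold change was -0.65 for *rpl-37.2*, -0.83 for *rps-20* and -0.01 for *rps-15*.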

How the results depend on the processing

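At an adjusted p under 0.05 from limma, 10 large subunit members were lower and 1 higher, and 8 small subunit members were lower. With array weights the large subunit had 23 lower and 2 higher and the small subunit 15 lower, with a difference of the subunit medians (large minus small) of 0.0042 in place of 0.07 (all probe sets: 18.4% lower, 18.7% higher). With both replicate 4 arrays left out these counts were 22, 3 (*rpl-3*, *rpl-4* and *rpl-23A.1*) and 15 (all probe sets: 16.3% lower, 17% higher). Cyclic loess (3.96% of all probe sets lower) left 1 small subunit member called lower (*rps-13* reached an adjusted p of 0.0114 from limma) and turned the difference of the medians to -0.0195. Centring each array on its median, which moved the median of all probe sets from -0.04 to -0.19, gave 4 called lower in each subunit (5.64% of all probe sets) and medians of -0.48 (large) and -0.56 (small); of all calls 47.8% were then higher, against 65.5% as reported and 59.5% with cyclic loess. With an intensity trend and robust spread 2 large subunit members were lower (3.11% of all probe sets). The replicate numbers did not pair the arrays: deviations from the group means correlated at -0.31, 0.01, -0.20 and -0.57 for numbers 1 to 4, and with the number as a block, members called lower were 0 in the large and 0 in the small subunit (adjusted p from limma of 0.038 for *rpl-19*, 0.031 for *rps-13* and 0.036 for *rps-20*), where the block left 0.269% of all probe sets called lower. Leaving out each array in turn gave 0 to 17 large subunit members lower and 0 to 1 higher, 0 to 10 small subunit members lower, medians of -0.48 to -0.31 (large) and -0.45 to -0.36 (small) and a difference of -0.0286 to 0.075; the highest counts came without wild-type replicate 4. Members near 0 changed sign: *rps-15* was at 0.0386 with cyclic loess, at 0.0455 without both replicate 4 arrays and between -0.105 and 0.0361 without 1 array, *rps-10* at -0.0879 with centring and between -0.00112 and 0.195 without 1 array, and *rpl-11.2* between -0.0947 and 0.0314 without 1 array. The cause of these changes was not tested. The number of arrays limits the precision.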
